A study of Mus musculus with 4 samples.

Results

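The respiratory chain genes were followed in sorted mouse CD4 and CD8a double-positive (DP) thymocytes, as 93 of the 35976 gene symbols in the count tables. Membership was set by symbol alone. A name pattern took the nuclear genes of complexes I, III, IV and V, the 4 succinate dehydrogenase genes stood for complex II, and the 13 protein-coding genes of mitochondrial DNA completed the set, giving 80 nuclear and 13 mitochondrial members. Control mice were Cxxc1 +/+ with Lck-cre and knockout (KO) mice were Cxxc1 F/F with Lck-cre, with 2 bulk RNA-seq libraries for each genotype. Both genotypes carried the Lck-cre transgene, in which a T-lineage promoter drives Cre, and the sources used here give no age. Cells had been sorted as CD24+, TCRb-, CD4+ and CD8a+. Nothing in the labels says whether the libraries came from separate animals, so each p-value reflects just the spread among these samples, and that spread may be technical.

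The respiratory chain lies in the inner mitochondrial membrane. Complex I (NADH dehydrogenase) and complex II (succinate dehydrogenase) pass electrons to coenzyme Q, complex III passes them to cytochrome c, complex IV (cytochrome c oxidase) passes them to oxygen, and complex V (ATP synthase) makes ATP from the proton gradient that results. Subunits of complexes I, III, IV and V come from both genomes: the nuclear genes are transcribed one by one, whereas mitochondrial genes are cut from long transcripts of each strand of mitochondrial DNA. Complex II is wholly nuclear. Cxxc1 encodes a protein that recognises CpG sites that lack methylation and is part of the SETD1 histone H3K4 methyltransferase complexes, and promoters of respiratory chain genes are often rich in CpG.

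The libraries of control 1 and control 2 held 12150508 and 34820446 counts, and those of KO 1 and KO 2 held 36243182 and 33544428, so control 1 was the shallowest library. Cxxc1 itself had control levels of 111 and 53.5 CPM and KO levels of 35.7 and 39.4 CPM (CPM, read counts relative to the scaled library size), and its fitted difference did not pass the test (adjusted p = 0.199, edgeR). Of the DP markers, all 10 were detected, with summed control levels of 12101 and 15713 CPM and KO levels of 5894 and 8575 CPM, and 3 of them, Cd4, Cd8a and Dntt, fell. The 8 erythroid markers summed to 11.1 and 16.2 against 38.9 and 26.9 CPM, and 1 of them, Hba-a1, rose. Among all genes, 0.451% were called in either direction and 0.270% higher. Both KO libraries lay above both controls in 4 of the 8, Hba-a1, Hba-a2, Hbb-bs and Hbb-bt, each at 0 CPM in both controls. Both lay below in 2, Slc4a1 and Klf1. For all genes these shares were 22.8% and 24.0%. Alas2 overlapped, at 8.24 and 14.0 against 11.5 and 15.7 CPM. Those of the myeloid, B cell, thymic epithelial and NK lists were between 1.95 and 18.5 CPM in every library, and no marker was at 0 in all of them. Members of the thymic epithelial list went both ways. Epcam had 1.09 and 4.88 against 11.6 and 15.1 CPM (adjusted p = 0.210 in edgeR and adjusted p = 0.0444 in DESeq2, where 2.21% of all genes were called higher). Krt8, Foxn1 and Psmb11, at under 2 CPM, had both KO libraries below both controls. The part of these markers in the results was not tested.

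Promoters of the nuclear members were rich in CpG. RefSeq promoter windows (GRCm38.p6, 300 bases from 250 before to 50 after the start) were given for 65 of the 80 nuclear genes, as 70 windows. They held a median of 19 CpG, with a range of 2 to 43, against 15 in all windows of tested genes. The NRF1 motif, GCGCA and GCGC with 1 base of any kind between them, was found in 25.7% of the member windows and 7.20% of those of tested genes. The ETS motif CCGGAAG was found in 22.9% and 13.1%, the YY1 motif ATGGCGG in 15.7% and 5.96%, the ERR motif TNAAGGTCA in 4.29% and 1.03%, and TATAAA in 11.4% and 9.25%, each searched on both strands. Motif matches were allowed to overlap, and a match describes the letters only.

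The promoter stretches of 4 genes that were among the smallest unadjusted p-values of their complexes are shown, chosen after their values were seen because they differ widely in CpG content while both KO libraries lay above both controls in each. Each is the upstream part of the window without annotated untranslated bases, 5′ to 3′ on the gene's strand, with motif matches in capitals. Ndufv2 has 28 CpG in 250 bases and no match, Cox7b has 5 CpG and no match, Ndufb4 has 11 CpG in 165 bases with 1 NRF1 match, and Atp5l has 7 CpG with 1 ETS and 1 TATAAA match on the opposite strand.
Ndufv2, chr17:66101560-66101809 (minus strand): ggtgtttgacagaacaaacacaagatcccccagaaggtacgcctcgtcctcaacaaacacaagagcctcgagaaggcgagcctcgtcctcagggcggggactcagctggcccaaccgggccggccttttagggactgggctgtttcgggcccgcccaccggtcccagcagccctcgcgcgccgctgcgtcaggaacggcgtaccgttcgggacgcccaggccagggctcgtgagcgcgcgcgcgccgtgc
Cox7b, chrX:106015450-106015699 (plus strand): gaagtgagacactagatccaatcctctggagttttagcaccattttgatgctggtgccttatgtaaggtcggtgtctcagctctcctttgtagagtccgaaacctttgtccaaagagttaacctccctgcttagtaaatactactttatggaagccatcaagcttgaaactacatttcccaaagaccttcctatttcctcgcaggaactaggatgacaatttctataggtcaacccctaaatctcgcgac
Ndufb4, chr16:37654454-37654618 (minus strand): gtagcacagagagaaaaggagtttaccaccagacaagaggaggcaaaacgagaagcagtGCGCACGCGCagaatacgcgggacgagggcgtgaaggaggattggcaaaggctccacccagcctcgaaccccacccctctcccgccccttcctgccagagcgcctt
Atp5l, chr9:44920743-44920992 (minus strand): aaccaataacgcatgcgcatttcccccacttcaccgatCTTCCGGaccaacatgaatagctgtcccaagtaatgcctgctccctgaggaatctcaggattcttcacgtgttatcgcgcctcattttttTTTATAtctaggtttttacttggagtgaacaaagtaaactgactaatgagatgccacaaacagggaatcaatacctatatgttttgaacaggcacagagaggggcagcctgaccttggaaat

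CpG content and fold change were only weakly related. Over the 63 tested members with a window, Spearman's rho between the CpG count of the first listed window and the log2 fold change (KO over control) was 0.12, beside 0.12 over 14352 tested genes. These are descriptions across genes of the same 4 libraries. The 34 members with at least 19 CpG had a median of 0.43, and the 29 below that had 0.30. Members with an NRF1 match (16 genes) had a median of 0.46 and those without (47) had 0.32. For the ETS motif the order was the opposite, at 0.22 with a match (15 genes) and 0.38 without. For the YY1 motif the medians were close, at 0.33 with a match (9 genes) and 0.36 without (54).

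The comparison asked whether the respiratory chain genes differed between control and Cxxc1 KO DP thymocytes. Most members had slightly higher levels, relative to library size, in the KO libraries, and none passed the test by itself. Of the 90 members tested (3 were too low), 0 rose and 0 fell at an adjusted p below 0.05 in edgeR's quasi-likelihood test, where 0.451% of all 20389 genes tested were called. At an unadjusted p below 0.05, 13 of 77 nuclear members (16.9%) were higher and 0 lower, beside 6.97% higher and 6.91% lower among all genes. DESeq2 called 1 member higher, Cox6c, and 0 lower, where 4.74% of all genes were called in either direction and 2.21% higher. In simulated counts for this comparison (18642 genes, changed genes at 5 CPM or more), the test recovered 16% of 2-fold and 70% of 4-fold changes, and most differences described here are smaller than 2-fold.

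The nuclear members had a median log2 fold change (KO over control) of 0.37, a 1.29-fold higher level, against -0.04 over all genes tested. The fold change was above 0 in 66 of 77 (85.7%), against 47.6% of all genes. Both KO libraries lay above both control libraries in 44 of 77 (57.1%), beside 22.8% of all genes, and both lay below in 0, beside 24.0%. The other 33 overlapped. The highest value of a nuclear member was in KO 1 for 46 genes and KO 2 for 15, and the lowest in control 2 for 45 and control 1 for 23. The median of the nuclear members was 0.46 without control replicate 1, 0.28 without control replicate 2, 0.29 without KO replicate 1 and 0.43 without KO replicate 2.

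**Figure D1:**
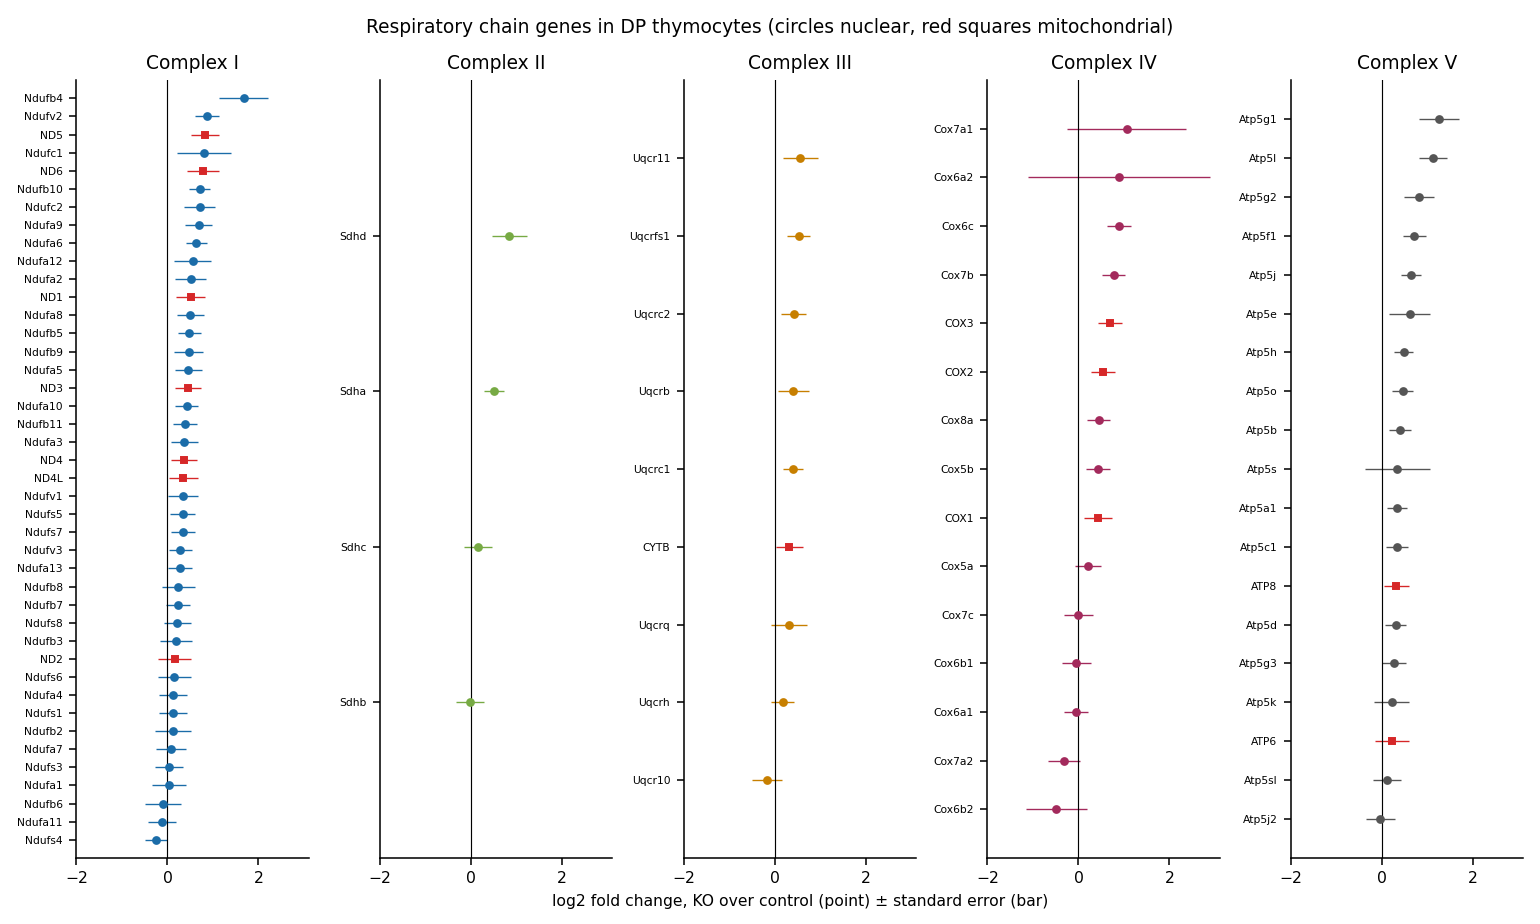
Log2 fold change (KO over control) of the tested members, apart from 1 complex I gene that is not shown, with the standard error as a bar, in 1 panel per complex, with nuclear genes as circles and mitochondrial genes as red squares. Points lie mostly to the right of 0, up to 1.68 for Ndufb4, and the lowest is Cox6b2 at -0.48.

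As summed counts, the 80 nuclear genes took 0.403% and 0.375% of all counts in the control pair and 0.524% and 0.518% in the KO pair. The KO libraries were close to each other and both lay above both controls. Complex V took the largest part, at 0.166% and 0.155% in the controls and 0.224% and 0.215% in the KO libraries. Complex I took 0.120% and 0.116% against 0.152% and 0.156%, and complex IV took 0.0465% and 0.0403% against 0.0582% and 0.0619%. Complex II took 0.0238% and 0.0208% against 0.0289% and 0.0316%, and complex III took 0.0469% and 0.0419% against 0.0614% and 0.0527%. Each of the 5 nuclear sums was above both controls in both KO libraries. A sum is carried by its most abundant genes, and the median log2 CPM of the tested members was less uniform. It overlapped between genotypes for complex II (5.36 and 4.89 against 5.47 and 4.96) and complex IV (4.94 and 4.61 against 4.88 and 4.73). For complexes I, III and V both KO medians lay above both control medians.  In bulk samples, more RNA per cell, a changed mixture of cells and a change in other RNA of the library cannot be told apart.

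**Figure D2:**
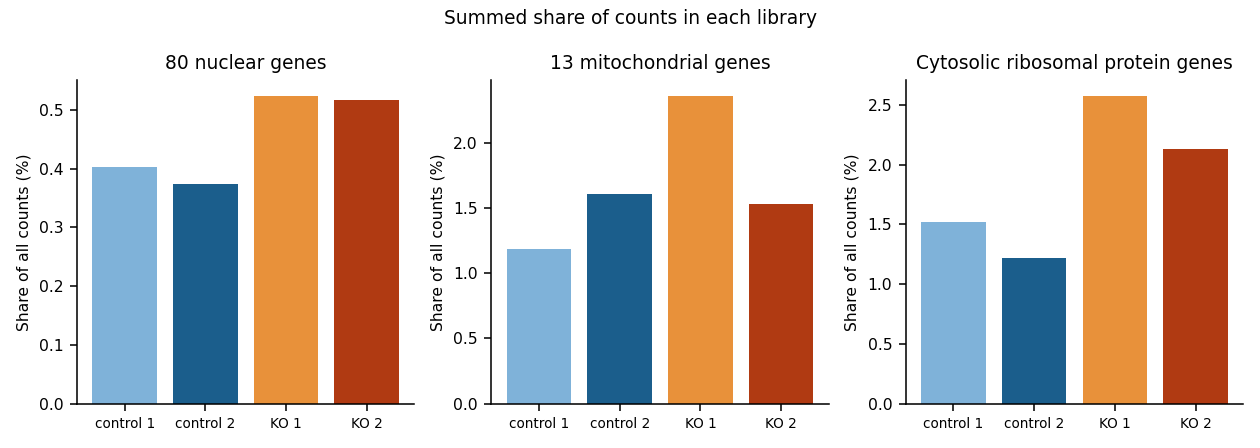
Bars give the share of all counts, in percent, taken in each library by the 80 nuclear members, the 13 mitochondrial members and the cytosolic ribosomal protein genes. The nuclear share is higher in both KO libraries, while the mitochondrial share is highest in KO 1 (2.36%) and in KO 2 (1.53%) lies between the controls.

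Complex I, the entry point for electrons from NADH, had 36 nuclear members. Of these, 33 had a fold change above 0 (91.7%, beside 47.6% of all genes). In 21, both KO libraries lay above both controls (58.3%, beside 22.8% of all genes). The median log2 fold change was 0.34. The 7 core subunits, which carry the redox centres and the quinone site, had a median of 0.33, with all 7 values above 0. The 29 other members had 0.37, with 26 above 0. Of these 29, Ndufa4 is now assigned to complex IV, and had control levels of 37.7 and 45.5 CPM and KO levels of 56.2 and 34.9 CPM (0.13 ± 0.30).

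Among complex I genes, Ndufv2 (chromosome 17, 66078795 to 66101559 on GRCm38), which encodes an iron-sulfur core subunit of the NADH-oxidising module, had control levels of 28.8 and 27.1 CPM and KO levels of 54.5 and 47.9 CPM. The KO values were clearly apart from the controls, with a log2 fold change of 0.87 ± 0.26, but did not pass the test (adjusted p = 0.198). Ndufb4 (chromosome 16, 37647602 to 37654368), an accessory subunit of the membrane arm, had control levels of 5.13 and 2.25 CPM and KO levels of 11.3 and 11.9 CPM. Its log2 fold change of 1.68 ± 0.53 (adjusted p = 0.219) was the largest of all members, on few counts. Ndufb10 (chromosome 17, 24722060 to 24724423), also of the membrane arm, had control levels of 71.1 and 88.1 CPM and KO levels of 135 and 126 CPM (0.71 ± 0.23, adjusted p = 0.223). Ndufa6 (chromosome 15, 82350139 to 82354291), an accessory subunit of the LYR motif family, had control levels of 54.98 and 58.2 CPM and KO levels of 84.1 and 91.8 CPM (0.64 ± 0.22, adjusted p = 0.259). In all of these the groups did not overlap, but they were picked for the smallest p-values of the complex, which favours such an order.

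Of the core subunits, Ndufs7 and Ndufv1 had 38.1 and 35.2 against 51.5 and 40.8 CPM and 41.9 and 23.5 against 45.3 and 37.3 CPM, with log2 fold changes of 0.33 ± 0.27 and 0.34 ± 0.33. Ndufs3 and Ndufs8 were nearer to 0, at 0.04 ± 0.30 and 0.22 ± 0.29. Ndufs1, the largest core subunit, had 50.5 and 95.7 against 82.5 and 76.9 CPM: its controls differed more from each other than the KO libraries did from either. The 3 members of the complex with a fold change below 0 were Ndufs4 (-0.25 ± 0.24), Ndufa11 (-0.12 ± 0.30) and Ndufb6 (-0.10 ± 0.39), and in each the groups overlapped. Apart from Ndufv2, Ndufb4, Ndufb10 and Ndufa6, the complex I genes were named after their values were seen.

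Complex II links the tricarboxylic acid cycle to the chain. Its catalytic flavoprotein gene Sdha (chromosome 13, 74322255 to 74350240) had control levels of 136 and 137 CPM and KO levels of 178 and 209.7 CPM. The controls were nearly equal and both KO libraries lay above them (0.50 ± 0.22, adjusted p = 0.351). The iron-sulfur subunit gene Sdhb had 52.5 and 35.4 against 52.03 and 34.2 CPM, so that KO 1 was level with control 1 and KO 2 with control 2 (-0.02 ± 0.32). Of the membrane anchors, Sdhd had control levels of 23.3 and 12.6 CPM and KO levels of 37.02 and 26.9 CPM (0.84 ± 0.38, adjusted p = 0.365), without overlap, and Sdhc had 31.2 and 24.1 against 33.8 and 27.5 CPM (0.15 ± 0.30), with overlap.

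Complex III had 8 nuclear members with a median log2 fold change of 0.40. Of these, 7 were above 0 (87.5%, beside 47.6% of all genes). In 4, both KO libraries lay above both controls (50%, beside 22.8% of all genes). Uqcrfs1 (chromosome 13, 30540312 to 30545316), the Rieske iron-sulfur subunit, had control levels of 48.00 and 52.3 CPM and KO levels of 80.01 and 64.1 CPM (0.52 ± 0.24, adjusted p = 0.384). The core proteins Uqcrc1 and Uqcrc2 had 125 and 113 against 173 and 140.4 CPM and 51.5 and 45.03 against 77.1 and 51.6 CPM, with log2 fold changes of 0.40 ± 0.23 and 0.42 ± 0.27. In Uqcrc2 the value of KO 2 was nearly equal to that of control 1. The small subunit gene Uqcr11 had 27.2 and 13.5 against 32.3 and 27.3 CPM (0.56 ± 0.38), where KO 2 and control 1 were again nearly equal. Uqcrh, the acidic hinge protein that binds cytochrome c1, overlapped between groups at 119 and 93.96 against 138 and 101.12 CPM (0.17 ± 0.25), and Uqcr10, named after its values were seen, was the one member below 0 (-0.16 ± 0.33).

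Complex IV had members on both sides of 0. Of 15 nuclear members 12 were tested, with a median of 0.33. Fold changes were above 0 in 7 (58.3%, beside 47.6% of all genes) and below in 5. In 5, both KO libraries lay above both controls (41.7%, beside 22.8% of all genes). Cox6c (chromosome 15, 35931976 to 35938246), a small structural subunit, had control levels of 85.2 and 77.6 CPM and KO levels of 123 and 179 CPM. Both KO libraries were well above both controls, by a log2 fold change of 0.89 ± 0.25 (adjusted p = 0.180 in edgeR and adjusted p = 0.0449 in DESeq2). Cox7b (chromosome X, 106015700 to 106022450), another small subunit, had control levels of 50.3 and 49.4 CPM and KO levels of 100.4 and 69.7 CPM (0.77 ± 0.26, adjusted p = 0.233). Cox5b, which binds zinc, had 119 and 80.8 against 149.7 and 120.1 CPM (0.44 ± 0.26), and here control 1 and KO 2 were nearly equal. Cox8a had 45.1 and 62.5 against 78.2 and 68.1 CPM (0.44 ± 0.26), without overlap.

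Where complex IV has tissue forms, the ubiquitous form was the abundant one in both genotypes and the muscle, heart or testis form was low. Cox6a1 had 61.5 and 45.5 against 51.7 and 50.8 CPM (-0.06 ± 0.26), while its muscle form Cox6a2 had 0 and 20 counts in the controls and 22 and 18 in the KO libraries. Cox6b1 had 31.8 and 23.5 against 30.4 and 23.01 CPM (-0.05 ± 0.32) and its testis form Cox6b2 had 7.48 and 2.86 against 3.82 and 3.51 CPM (-0.48 ± 0.67). Cox7a2 had 28.5 and 17.97 against 19.1 and 18.2 CPM (-0.31 ± 0.35) and its muscle form Cox7a1 1.09 and 0.462 against 0.603 and 2.58 CPM (log2 fold change 1.06, with a standard error larger than the value). The muscle form Cox8b had 5, 8, 2 and 5 counts and was not tested. Cox7b2 and Cox8c, both testis forms, had 0 counts in all 4 libraries, which allows up to 0.247, 0.0862, 0.0828 and 0.0894 CPM in control 1, control 2, KO 1 and KO 2 by counting error alone. Cox4i1 and Cox4i2, which the name pattern does not match, had 77.5 and 66.8 against 93.7 and 77.3 CPM (0.25 ± 0.23) and 2.69 and 4.15 against 1.92 and 0.393 CPM (-1.57 ± 1.00, adjusted p = 0.549), and Cox4i2 was the one gene of these pairs with both KO libraries below both controls. None of these genes passed the test, and a shift between forms was not tested.

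Complex V had 17 nuclear members, with a median log2 fold change of 0.39. Of these, 16 had a fold change above 0 (94.1%, beside 47.6% of all genes). In 12, both KO libraries lay above both controls (70.6%, beside 22.8% of all genes). By name the pattern also takes Atp5s and Atp5sl, which are not subunits of the synthase and had 0.34 ± 0.71 and 0.10 ± 0.31. The catalytic beta subunit gene Atp5b (chromosome 10, 128083307 to 128090388) had control levels of 416 and 366 CPM and KO levels of 574 and 452 CPM (0.39 ± 0.23, adjusted p = 0.511). Its partner Atp5a1, the alpha subunit, had 413 and 369 against 525 and 461 CPM (0.33 ± 0.22). In both genes the groups did not overlap.

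Among the other complex V genes, Atp5l (chromosome 9, 44913248 to 44920742), subunit g of the membrane part, had control levels of 15.2 and 20.5 CPM and KO levels of 33.5 and 44.2 CPM (1.12 ± 0.32, adjusted p = 0.180). Atp5f1, subunit b of the peripheral stalk, had control levels of 86.00 and 92.8 CPM and KO levels of 172 and 119.9 CPM (0.71 ± 0.25, adjusted p = 0.255), and Atp5j (chromosome 16, 84827871 to 84835857), coupling factor 6 of the same stalk, had control levels of 81.2 and 93.9 CPM and KO levels of 141 and 131 CPM (0.63 ± 0.22, adjusted p = 0.255). Subunit c of the rotating ring is encoded by 3 genes with the same mature protein. Atp5g1 (chromosome 11, 96072793 to 96075694) had control levels of 4.96 and 6.92 CPM and KO levels of 16.3 and 12.2 CPM (1.25 ± 0.43, adjusted p = 0.251), Atp5g2 had 13.5 and 11.6 against 22.3 and 21.4 CPM (0.80 ± 0.33, adjusted p = 0.333), and Atp5g3 had 63.7 and 46.3 against 72.6 and 59.8 CPM (0.27 ± 0.26). Atp5g3 had the highest CPM of the 3 and overlapping groups. A difference between the 3 genes in their response was not tested. Named after their values were seen, Atp5j2 and Atp5k, subunits f and e of the membrane part, had 35.6 and 23.97 against 25.7 and 32.1 CPM (-0.04 ± 0.32) and 67.9 and 37.2 against 80.8 and 40.6 CPM (0.21 ± 0.39), both with overlap, and Atp5j2 was the one member of the complex below 0. Atp5e, the epsilon subunit of the central stalk, had 12.8 and 6.14 against 15.4 and 13.1 CPM (0.60 ± 0.45), without overlap.

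Several of these genes have near-identical copies elsewhere in the genome, to which reads could also have matched. With coding sequences of GENCODE M21 (GRCm38), 14 of 79 nuclear members that could be matched had another annotated transcript at 97% identity or more over at least 50% of the sequence. Ndufb4, Atp5l, Atp5g2 and Cox7c had an identical full-length match. The others were Atp5g1, Atp5f1, Cox5b, Uqcr11, Uqcrb, Atp5h, Atp5o, Ndufa12, Ndufs3 and Ndufs5, and the counts of all 14 are uncertain. The 14 had a median log2 fold change of 0.51, and the 62 tested members without a copy had 0.33, with 52 above 0. Cox6c, Cox7b, Ndufv2, Ndufb10, Ndufa6 and Sdha had no such copy.

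Per length, the nuclear members spanned a wide range within one chain. On the scale of CPM per kilobase of the principal GENCODE transcript, control means ran from 0.424 for Cox6a2 to 360.1 for Atp5h, subunit d of the ATP synthase stalk. Atp5b and Uqcrh followed at 204 and 194, and Sdha stood at 47.1. In the KO the same genes had 499 (Atp5h), 268 (Atp5b), 219 (Uqcrh) and 66.8 (Sdha). These levels assume the principal transcript, which may not be the one used in these cells, and Atp5h has a near-identical copy.

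For the mitochondrially encoded genes the KO libraries did not resemble each other. Together they took 1.19% and 1.61% of all counts in the control pair and 2.36% and 1.53% in the KO pair. KO 1 stood apart from the other libraries: each of the 13 genes had its highest level there. The lowest level was in control 1 for 11 genes and in KO 2 for 2. Control 2 was above control 1 in all 13, with a median log2 ratio of control 1 over control 2 of -0.44, and the median log2 ratio of KO 1 over KO 2 was 0.69. For the nuclear members these medians were 0.18 and 0.19. The ratio of mitochondrial to nuclear member counts was 2.95 and 4.29 in the controls and 4.50 and 2.96 in the KO libraries, so each genotype held 1 low and 1 high library.

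All 13 mitochondrial genes had a fitted fold change above 0, with a median log2 fold change of 0.44 and a range of 0.16 to 0.83, but 9 of the 13 had overlapping groups. The 4 whose KO libraries both lay above both controls (30.8%, beside 22.8% of all genes) were COX2, COX3, ND3 and ND5. At an unadjusted p below 0.05, 2 were higher, COX3 and ND5, and DESeq2 called 0. The median was 0.13 without KO replicate 1, with 9 genes above 0, and 0.67 without KO replicate 2. Leaving out control replicate 1 gave 0.23, and leaving out control replicate 2 gave 0.69. The 13 genes share long transcripts and are not independent of each other.

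**Figure D3:**
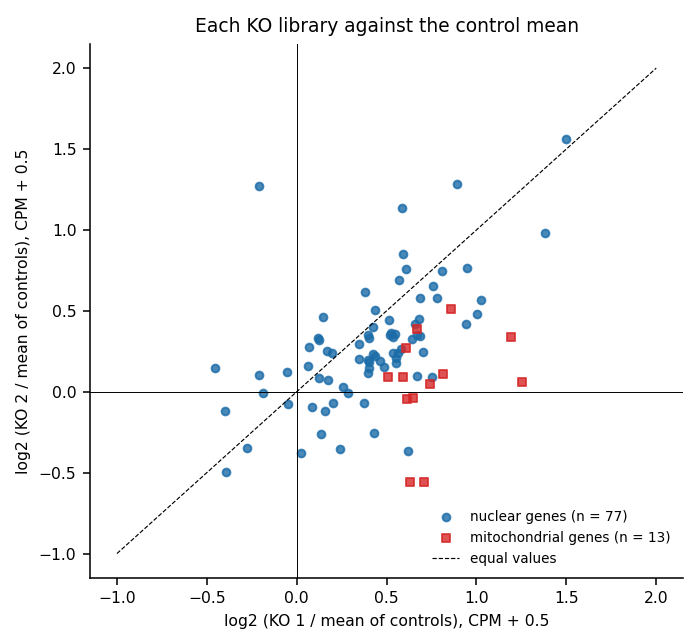
Log2 ratio of each tested member to the mean of the controls, in KO 1 on the horizontal and KO 2 on the vertical axis, with nuclear genes as blue circles, mitochondrial genes as red squares and equal values on the dashed line. All 13 mitochondrial genes lie below the dashed line; both axes use the same controls.

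Along the mitochondrial genome, levels differed by gene far more than by library. COX1 (chromosome M, 5328 to 6872), the catalytic subunit of cytochrome c oxidase, was the most abundant at 2992 and 4046 CPM per kilobase in the controls and 5882 and 3633 in the KO libraries. It took 38.1% and 38.7% of the counts of the 13 genes in the controls and 37.03% and 38.9% in the KO libraries, a nearly constant share. On the same scale the lowest was ND3, a complex I membrane subunit, at 91.6 and 122 CPM per kilobase in the controls and 164 and 129 in the KO libraries. COX1 exceeded the most abundant nuclear member per length, Atp5h, in every library.

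The neighbouring complex I genes ND5 and ND6 had the highest ratios to the controls in KO 1. ND5 (11742 to 13565), a proton-pumping subunit, had control levels of 1524 and 1781 CPM and KO levels of 3776 and 2086 CPM (0.83 ± 0.31 on the log2 scale, adjusted p = 0.285). ND6 (13552 to 14070), the only one of the 13 encoded on the opposite strand, had control levels of 453 and 531 CPM and KO levels of 1173 and 514 CPM (0.78 ± 0.36, adjusted p = 0.376). Relative to the control mean, ND5 was 2.29-fold in KO 1 and 1.26-fold in KO 2, and ND6 was 2.38-fold and 1.04-fold. In KO 1 the other 11 genes lay between 1.42-fold and 1.82-fold. As a share of the 13-gene sum, ND5 had 12.6% and 11.03% in the controls and 15.4% and 14.5% in the KO libraries, so that this share was higher in both KO libraries. ND6 is antisense to ND5 over 14 bases at their ends and, since no strand setting is stated, their reads there cannot be told apart. For the same reason, RNA of the other strand could have been counted as ND6 along its whole length. The levels and ratios given for ND6 are therefore uncertain.

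The other mitochondrial complex I genes had overlapping groups except for ND3. ND1 had control levels of 859.9 and 1317 CPM and KO levels of 1916 and 1176 CPM (0.51 ± 0.31), ND2 had 577 and 748 against 1025 and 451 CPM (0.16 ± 0.36), and ND4 had 705 and 1057 against 1329.7 and 938 CPM (0.36 ± 0.29). ND2 was lower in KO 2 than in either control and higher in KO 1 than in either. ND4L had 67.3 and 113 against 142 and 87.9 CPM (0.34 ± 0.32) and ND3 had 31.9 and 42.5 against 56.97 and 45.04 CPM (0.45 ± 0.28). CYTB, the complex III cytochrome b gene, had 1421 and 1837 against 2496 and 1577 CPM (0.32 ± 0.29), with KO 2 inside the range of the controls.

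Of the complex IV genes, COX2, which holds the copper centre that accepts electrons from cytochrome c, had control levels of 348 and 511 CPM and KO levels of 684 and 561 CPM (0.53 ± 0.26, adjusted p = 0.409). COX3 had control levels of 161 and 234 CPM and KO levels of 359 and 282 CPM (0.70 ± 0.26, adjusted p = 0.285). In both, KO 2 lay above the controls as well, while COX1 did not have this order, at 4623 and 6250.4 against 9088 and 5613 CPM (0.44 ± 0.31, adjusted p = 0.604). The complex V gene ATP6, the proton channel subunit, had control levels of 1257 and 1562 CPM and KO levels of 2305 and 957 CPM (0.21 ± 0.38), with KO 1 the highest and KO 2 the lowest library. ATP8, whose reading frame overlaps ATP6, had 108 and 165 against 194 and 146 CPM (0.31 ± 0.27). The ratio of KO 1 to KO 2 thus ran from 1.22 for COX2 to 2.41 for ATP6.

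**Figure D4:**
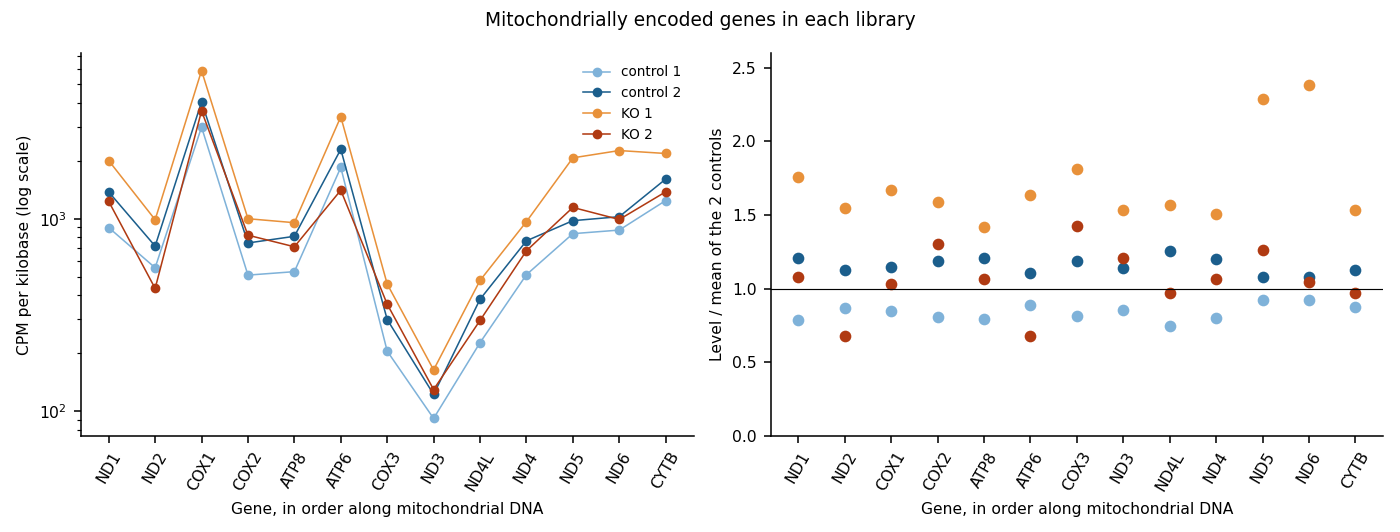
Left, level of each mitochondrial gene in each library in CPM per kilobase on a log scale, in gene order; right, the same level divided by the mean of the controls. KO 1 is the highest library for every gene, up to 2.38 times the control mean for ND6, and KO 2 falls to 0.679 times for ATP6.

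Counts of some mitochondrial genes depend on how shared bases and nuclear copies were handled, on which the sources used here are silent. ATP8 and ATP6 share 43 bases (chrM:7927-7969, plus strand, GRCm38), printed with the ATP6 start codon and the ATP8 stop codon in capitals.
ATP8 and ATP6 overlap: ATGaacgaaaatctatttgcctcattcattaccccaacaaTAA
Reads within it match both genes. In all, 7 of the 13 genes had an annotated nuclear transcript of 97% identity or more over at least 50% of their length. The match was identical for COX2, ATP6, COX3 and ND4L over nearly their whole length and for 63.6% of ND4, and it was at 99.7% for ND3 and at 97.6% for COX1. The genes with a copy had a median log2 fold change of 0.44 and the 6 without had 0.41.

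Most lists of other genes that serve the chain also had medians above 0. That of its nuclear regulators was below 0, as was that of all genes tested (-0.04). The counts of each list stand beside these shares of all genes tested: 47.6% had a fold change above 0. At an unadjusted p below 0.05, 6.97% were higher and 6.91% lower. DESeq2 called 2.21% higher. Of 6 tested subunits and carriers outside the name pattern, the median log2 fold change was 0.61, with 0 called by edgeR, 0 by DESeq2, and 3 higher and 0 lower at an unadjusted p below 0.05. Cycs, which encodes cytochrome c, had control levels of 16.3 and 18.3 CPM and KO levels of 37.6 and 29.95 CPM (0.96 ± 0.31, adjusted p = 0.219). Ndufab1, the acyl carrier subunit of complex I, had 31.4 and 40.7 against 60.9 and 65.8 CPM (0.81 ± 0.26, adjusted p = 0.220). Among 44 assembly factors the median was 0.23, with 31 above 0, 0 called by edgeR, 2 by DESeq2, and 7 higher and 0 lower at an unadjusted p below 0.05. The 2 called by DESeq2 assemble complex III: Lyrm7, which delivers the Rieske protein, had control levels of 9.33 and 10.5 CPM and KO levels of 21.98 and 33.4 CPM (1.48 ± 0.36, adjusted p = 0.120), and Uqcc2 had control levels of 9.67 and 6.32 CPM and KO levels of 24.5 and 20.2 CPM (1.49 ± 0.38, adjusted p = 0.139).

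All 11 tested genes of coenzyme Q synthesis had a fold change above 0, with a median of 0.60, 0 called by edgeR, 0 by DESeq2, and 2 higher and 0 lower at an unadjusted p below 0.05. The methyltransferase gene Coq5 had 23.2 and 18.3 against 50.02 and 32.8 CPM (1.00 ± 0.32) and the prenyltransferase gene Coq2 17.5 and 8.14 against 25.6 and 23.3 CPM (0.94 ± 0.41). Genes for the copying, transcription and RNA processing of mitochondrial DNA had a median of 0.26 over 29, with 24 above 0. Of these 29, 0 were called by edgeR and 1 by DESeq2. At an unadjusted p below 0.05, 1 was higher (3.45%, beside 6.97% of all genes) and 0 lower. Tefm, the mitochondrial transcription elongation factor, had control levels of 2.86 and 3.17 CPM and KO levels of 9.76 and 14.8 CPM (2.02 ± 0.49, adjusted p = 0.117 in edgeR and adjusted p = 0.0173 in DESeq2). Fastkd2, a mitochondrial RNA-binding protein, had 6.73 and 5.22 against 12.9 and 10.1 CPM (0.95 ± 0.44).

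Nuclear regulators of respiratory genes had a median of -0.15 over 15, with 6 above 0 (40%, beside 47.6% of all genes) and 9 below. DESeq2 called 1, and at an unadjusted p below 0.05, 2 were higher and 0 lower. Both KO libraries lay below both controls in 4 of the 15 and above in 3 (20%). Both counts were near the shares of all genes, 24.0% below and 22.8% above. The 4 were Nrf1 (-0.32 ± 0.21), Esrra (-0.82 ± 0.41), Sp1 (-0.20 ± 0.22) and Creb1 (-0.40 ± 0.22), and none passed the test. The 1 gene of this list that rose, where 0.270% of all genes were called higher, was Myc, a growth-promoting transcription factor, with control levels of 21.9 and 12.98 CPM and KO levels of 201 and 109 CPM (3.16 ± 0.38, adjusted p = 0.0156), and without KO replicate 1 its call ended, at a log2 fold change of 2.69. Pprc1, a coactivator of the PGC-1 family, had control levels of 51.1 and 49.04 CPM and KO levels of 164 and 49.7 CPM: KO 1 alone was high and KO 2 was level with the controls (1.10 ± 0.46, adjusted p = 0.334).

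Genes of the tricarboxylic acid cycle and pyruvate dehydrogenase had a median of 0.30 over 18, with 16 above 0. Of these 18, 0 were called by edgeR and 1 by DESeq2. At an unadjusted p below 0.05, 1 was higher (5.56%, beside 6.97% of all genes) and 0 lower. Suclg2, the GTP-forming succinate-CoA ligase subunit, had control levels of 12.2 and 13.8 CPM and KO levels of 58.00 and 33.7 CPM (1.82 ± 0.35, adjusted p = 0.0689 in edgeR and adjusted p = 0.000319 in DESeq2), and Idh2 had 105 and 105 against 137 and 146 CPM (0.43 ± 0.21). Import and outer membrane genes had a median of 0.48, with all 14 above 0, 0 called by edgeR, 1 by DESeq2, and 3 higher and 0 lower at an unadjusted p below 0.05. The mitochondrial chaperonin gene Hspd1 had control levels of 64.8 and 62.8 CPM and KO levels of 152 and 103 CPM (0.99 ± 0.26, adjusted p = 0.138), and the channel gene Vdac3 had 34.2 and 25.5 against 50.4 and 50.8 CPM (0.76 ± 0.28). Glycolysis genes lay nearer to 0, with a median of 0.08 over 16, 10 above 0, 0 called by edgeR, 0 by DESeq2, and 0 higher and 0 lower at an unadjusted p below 0.05. Gpi1, glucose-6-phosphate isomerase, had 0.45 ± 0.23, and the glucose transporter gene Slc2a3 had 0.50 ± 0.38. A difference between these lists was not tested.

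A pair of broader groups had values on the same side as the nuclear members, and their part in the result was not tested. The 78 tested cytosolic ribosomal protein genes had a median of 0.70, larger than that of the respiratory chain, with 76 above 0. Both KO libraries lay above both controls in 64 (82.1%, beside 22.8% of all genes). Of the 78, 0 were called by edgeR and 20 by DESeq2, all higher, where DESeq2 called 2.21% of all genes higher. At an unadjusted p below 0.05, 49 were higher (62.8%, beside 6.97% of all genes) and 0 lower. Rps20 and Rps19 had 202 and 177 against 462 and 398 CPM (1.18 ± 0.23) and 100.97 and 83.5 against 216 and 201 CPM (1.17 ± 0.22). Summed over all 81 such symbols in the count tables, the ribosomal protein genes took 1.52% and 1.22% of all counts in the control pair. The sum was 2.58% and 2.13% in the KO pair, the same order of genotypes as the nuclear respiratory genes. Proteins of under 200 residues are encoded by 55 of 76 nuclear members with a known length. Genes for such proteins had a median of 0.14 over 1821 tested genes, against -0.02 over 12855 larger ones.

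**Figure D5:**
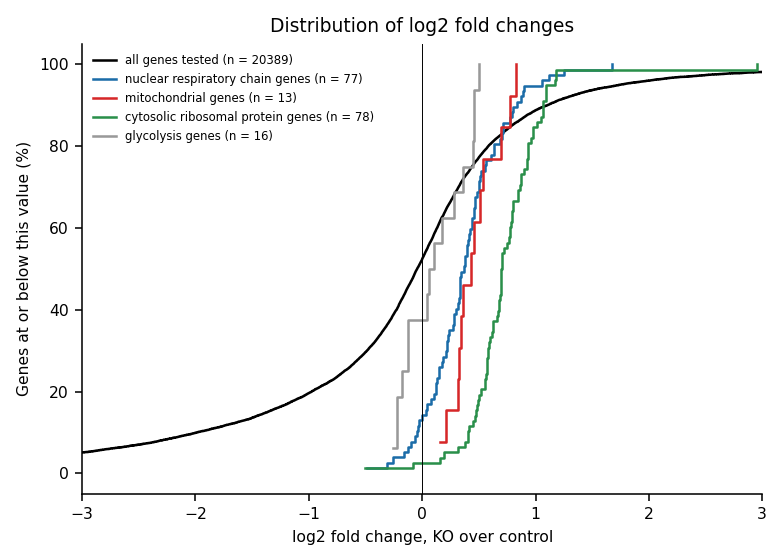
Cumulative share of genes, in percent, at or below each log2 fold change (KO over control) for all genes tested, the nuclear and mitochondrial members, cytosolic ribosomal protein genes and glycolysis genes, between -3 and 3. The nuclear members cross 50% at 0.37, the mitochondrial ones at 0.44, ribosomal protein genes at 0.70, glycolysis genes at 0.08 and all genes at -0.04.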

How the data were processed

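The 4 bulk RNA-seq libraries of sorted DP thymocytes were built from total RNA, per the labels with Takara's SMART-seq Standard chemistry. Each of the authors' deposited tables lists raw counts by gene symbol for 1 library, with no normalisation. A HISAT2 alignment is named per the file headers, and the build mm10 together with featureCounts 2.0.8, HISAT2 2.2.1, edgeR 3.36.0 and cutadapt 4.0 is listed in the submitters' processing notes, without roles. The sources used here do not state the annotation, the strand setting or how multiply matching reads were counted. The labels name no molecular identifiers, and the upper limits in CPM given for genes without counts cover counting error only.

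Differences between genotypes were fitted with edgeR 4.0.16 (R 4.3.3): filterByExpr defaults (minimum count 10, minimum total 15), TMM factors of 0.981, 0.997, 0.962 and 1.06, estimateDisp, glmQLFit and glmQLFTest with genotype as the only term. The p-values were two-sided and adjusted over all 20389 genes by Benjamini and Hochberg's method. Standard errors are the log2 fold change divided by the square root of F. DESeq2 1.42.0, other scalings and filters, left-out libraries and a replicate block were alternatives. On simulated counts the test made 145 calls for 200 changed genes, of which 6.90% were false. Copies were sought with blastn 2.17.0, and coordinates are RefSeq spans on GRCm38.p6 or, for mitochondrial genes, GENCODE M21.

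Members and gene lists were chosen with earlier results of these data known. Genes were named by rule: the mitochondrial and Sdh genes, the 4 smallest p-values and 2 highest CPM of the other nuclear complexes, the tissue forms, and the 2 smallest p-values of each related list. Other genes were named after their values were seen. A gene that the rule names is not reported here.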

Additional observations from a re-analysis of the deposited data

How the results depend on the processing

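The counts of calls depended strongly on the method and on single libraries, and the medians of the members depended on single libraries, more so for the mitochondrial genes. Genes called numbered 92 as reported, 920 with no filter on low counts, 231 at a mean of at least 5 CPM, 947 by DESeq2, 997 by edgeR's likelihood ratio test and 9 to 619 without 1 library, the lowest without KO replicate 1. With no filter, 2 of 91 members were called (Cox6c and Atp5l), where 3.01% of all 30613 genes were called. DESeq2 called 1 of 90 (Cox6c), beside 4.74% of all genes. With the replicate number as a block, 1599 genes (7.84% of those tested) and 11 of 90 members were called. The 11 members were all higher: Cox6c, Ndufb4, Atp5j, Ndufb10, Ndufv2, Atp5f1, Atp5l, Cox7b, COX3, ND5, ND6. The numbers are shared between genotypes but nothing says that they pair the samples (correlation of same-numbered deviations 0.07 over tested genes), so the blocked fit is an alternative only. The median log2 fold change of nuclear members ran from 0.28 to 0.46 and of mitochondrial members from 0.13 to 0.69 without 1 library, and nuclear members stayed above 0 in 75.3% to 92.2% under all alternatives run. With library totals only they had 0.40, and with the subunits outside the name pattern added 0.38. Over 65 named genes, 699 values kept direction and side of the threshold, 59 passed it where the reported value did not, 1 lost its call (Myc) and 17 changed sign. The genes that changed sign had log2 fold changes without 1 library of -0.32 to 0.29 for Sdhb, -0.52 to 0.63 for ND2, -0.26 to 0.17 for Cox6a1, -0.021 to 6.98 for Cox6a2, -0.25 to 0.19 for Cox6b1, -1.03 to 0.36 for Cox6b2, -0.61 to 0.052 for Cox7a2, -0.027 to 0.34 for Sdhc, -0.52 to 0.71 for ATP6, -0.00501 to 0.77 for ND4L, -0.00988 to 0.62 for CYTB, -0.034 to 0.38 for Uqcrh and -0.34 to 1.79 for Cox7a1. Of these values, Cox7a2 had 0.052 without control replicate 1. Sdhb also had 0.00542 with no filter. The cause was not tested. Depth limits the low tissue forms: control 1 had the fewest counts.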
